A study of Homo sapiens with 49 samples.

Results

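The genes described here are 10 of the unfolded protein response of the endoplasmic reticulum (ER), taken by name from a list of its sensors, chaperones and degradation factors: ERN1, XBP1, HSPA5, HSP90B1, DNAJB9, CALR, PDIA4, SEL1L, EDEM1 and HERPUD1. All 10 were found among the 23621 gene entries of the tables, beside 92 ERCC spike-in entries. Their mRNA was sequenced over 2 courses of human neuroblastoma cells. SHEP-21N cells express MYCN from a TET-off gene. Doxycycline (0.2 µg/ml, in RPMI medium with tetracycline-free serum) shuts it off, and the cells were sampled at 0 h (n = 2) and after 2, 4, 6, 8, 16 and 24 h (n = 3 each). BE(2)-C cells carry a TET-on short hairpin against TWIST1, a mesenchymal transcription factor, and were sampled without doxycycline and after 3, 6, 12, 24 and 48 h of 0.5 µg/ml (n = 3 each, in DMEM with tetracycline-free serum). Every time after the control therefore also received doxycycline, and no group received doxycycline without MYCN loss or hairpin induction. No label says that the libraries of a group came from separate cultures, so the p-values measure the spread between these libraries, which may be technical. The 11 other samples, BE(2)-C cells given DMSO or 1 µM of the bromodomain inhibitor JQ1, were not analysed here.

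The ER folds secreted and membrane proteins, and unfolded chains that pile up there set off the unfolded protein response. Its sensors are the kinase and ribonuclease IRE1 (gene ERN1), the kinase PERK and the membrane-bound factor ATF6. IRE1 splices the XBP1 mRNA so that it encodes an active transcription factor, and XBP1 and ATF6 raise the genes of chaperones, disulfide isomerases and the machinery that sends misfolded proteins back to the cytosol for degradation (ER-associated degradation, ERAD). Gene-level values do not separate the spliced from the unspliced XBP1 mRNA, so they measure the amount of XBP1 mRNA and not its splicing.

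Several of these genes share an ER stress response element in their promoters, and the sequences below show which. The 250 bases before the start of 6 genes are printed 5′ to 3′ on the gene's strand, from RefSeq on build GRCh38.p14. Capitals mark the fixed letters of the element (CCAAT, then any 9 bases, then CCACG) or of its variant (ATTGG, any base, then CCACG), on either strand, and the E-box CACGTG, the sequence bound by MYC and MAX family factors.
HSPA5: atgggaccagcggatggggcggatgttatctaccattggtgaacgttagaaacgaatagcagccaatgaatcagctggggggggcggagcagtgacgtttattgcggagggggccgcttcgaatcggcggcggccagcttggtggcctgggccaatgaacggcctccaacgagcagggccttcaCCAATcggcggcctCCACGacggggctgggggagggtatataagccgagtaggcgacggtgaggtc
HSP90B1: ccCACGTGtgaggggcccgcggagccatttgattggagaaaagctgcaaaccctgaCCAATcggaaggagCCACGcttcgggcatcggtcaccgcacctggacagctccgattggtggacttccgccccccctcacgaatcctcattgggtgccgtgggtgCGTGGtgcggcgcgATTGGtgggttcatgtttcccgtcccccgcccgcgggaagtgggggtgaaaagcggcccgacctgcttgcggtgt
XBP1: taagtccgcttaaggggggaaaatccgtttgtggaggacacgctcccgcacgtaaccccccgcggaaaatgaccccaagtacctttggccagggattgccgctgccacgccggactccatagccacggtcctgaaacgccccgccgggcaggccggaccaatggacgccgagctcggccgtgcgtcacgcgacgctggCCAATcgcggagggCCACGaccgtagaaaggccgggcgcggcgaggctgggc
CALR: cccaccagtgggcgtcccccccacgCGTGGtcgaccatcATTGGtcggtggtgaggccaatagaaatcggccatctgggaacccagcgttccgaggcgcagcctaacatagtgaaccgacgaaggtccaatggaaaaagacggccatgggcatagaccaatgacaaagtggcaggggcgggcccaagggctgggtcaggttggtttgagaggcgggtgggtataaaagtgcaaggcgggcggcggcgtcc
HERPUD1: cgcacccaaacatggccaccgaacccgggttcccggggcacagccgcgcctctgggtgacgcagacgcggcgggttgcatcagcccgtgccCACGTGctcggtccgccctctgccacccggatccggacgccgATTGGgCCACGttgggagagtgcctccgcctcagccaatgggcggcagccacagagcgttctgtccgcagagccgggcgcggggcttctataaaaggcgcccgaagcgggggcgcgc
DNAJB9: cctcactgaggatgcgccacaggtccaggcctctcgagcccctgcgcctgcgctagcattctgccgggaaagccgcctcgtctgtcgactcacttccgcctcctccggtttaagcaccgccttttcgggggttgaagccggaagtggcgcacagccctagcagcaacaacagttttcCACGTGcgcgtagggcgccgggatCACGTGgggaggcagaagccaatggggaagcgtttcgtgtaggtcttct
All 10 genes matched an entry of the promoter table, and windows of 300 bases (250 before and 50 after the start) were searched on both strands. The ER stress response element was found in 4 of the 10 genes: HSPA5 (chr9:125241344-125241593, minus strand), HSP90B1 (chr12:103930160-103930409, plus strand), XBP1 (chr22:28800570-28800819, minus strand) and CALR (chr19:12938359-12938608, plus strand). HSP90B1 held 2 copies, on opposite strands. The table holds 12 starts for the 10 genes, and the other start of XBP1, like both starts of PDIA4, had no element. The element was present in 27 of all 35116 promoters of this table, 0.0769%. The variant with ATTGG was found in HERPUD1 (chr16:56931892-56932141, plus strand) and in 19 of all promoters, 0.0541%. E-boxes, present in 7.26% of all promoters, were found in HSP90B1, in HERPUD1 and at 2 places in DNAJB9 (chr7:108569624-108569873, plus strand). The E-box shares its letters CACG with the part CCACG of the element. No match to either element or to the E-box was found in the windows of SEL1L, PDIA4, EDEM1 and ERN1. The ATF6 and XBP1 binding core TGACGTGG, present in 0.729% of all promoters, was in none of the 10. A match of letters is a description of the sequence and was not tested as a binding site.

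Levels are FPKM, fragment counts relative to transcript length and to the mapped fragments of the library, and they were deposited in 2 forms. Where unnormalised, a level is a share of the library. Where rescaled, it was set relative to the ERCC spike-ins, which were added at lysis after cell numbers had been determined, so that a level refers to the amount of spike-in RNA. Unless the amount of spike-in was matched to the cell count, fewer cells and less RNA per cell cannot be told apart in these bulk samples. Differences are log2 fold changes of FPKM + 1 from limma, with Benjamini-Hochberg adjustment over 11867 genes in SHEP-21N cells and 11433 in BE(2)-C cells. A gene is called higher or lower at an adjusted p under 0.05, and the rescaled table is the main scale. Libraries of a group are told apart by a number, as library 2 of 0 h.

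The summed spike-in level in the unnormalised table ran from 26061 to 39698 FPKM before 24 h and from 30829 to 47480 at 24 h in SHEP-21N cells. It ran from 15455 to 54501 before 48 h and from 57913 to 140361 at 48 h in BE(2)-C cells. The share of long transcripts also moved between libraries. A length index was computed as the median log2 deviation of genes with transcripts of at least 6000 bases minus that of genes under 2000 bases. It ran from -0.161 and -0.350 at 0 h to 0.127, 0.258 and 0.277 at 24 h in SHEP-21N cells. The 0 and 24 h libraries do not overlap in it, so a fit with the index as a covariate cannot fully tell it apart from time. In BE(2)-C cells it was -0.846 in control library 1, without doxycycline, against -0.138 to 0.208 in the other 17. The targeted genes went with the labels: rescaled MYCN was 789 ± 93.4 FPKM (SD, n = 2) at 0 h and 14.1 ± 3.05 (n = 3) at 24 h in SHEP-21N cells, and unnormalised TWIST1 was 64.9 ± 8.69 without doxycycline and 18.1 ± 0.684 at 48 h (n = 3 each) in BE(2)-C cells. All 9 adrenergic neuroblastoma markers averaged at least 1 FPKM in BE(2)-C cells. Of the same 9, 2 did so in SHEP-21N cells, where 8 of 9 mesenchymal markers passed. The summed mesenchymal markers ran from 1194 to 1269 FPKM at 0 h and from 2054 to 2186 at 24 h in SHEP-21N cells, mostly LGALS1 and VIM. The summed epithelial markers ran from 868 to 1002 and then from 1179 to 1235 FPKM, mostly KRT8 and KRT18. The adrenergic sum ran from 56.1 to 60.4 and then from 39.2 to 42.1 FPKM, and that of plasma or secretory cell markers, mostly SDC1, from 40.5 to 45.7 and then from 25.1 to 26.9. In BE(2)-C cells the mesenchymal sum ran from 606 to 1128 FPKM without doxycycline and from 498 to 513 at 48 h. The adrenergic sum there ran from 2623 to 3517 and then from 2718 to 2813. Their blood marker sum was at most 1.69 FPKM at these 2 times but reached 51.1 at a time between. Over all BE(2)-C libraries HBB reached 38.4 and HBA1 11.9 FPKM. The part of these shifts in the results below was not tested. SHEP-21N libraries at 8, 16 and 24 h reuse the index sequences of those at 0, 2 and 4 h, so a sequencing pool cannot be told apart from time.

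CALR, the lectin chaperone that holds glycoproteins for folding, had the highest unnormalised level of the 10 genes in untreated cells of both models. It was 801 ± 53.9 FPKM (SD, n = 2) in SHEP-21N cells and 505 ± 95 (n = 3) in BE(2)-C cells without doxycycline. In SHEP-21N cells at 0 h it was followed by PDIA4 (255), HSP90B1 (254) and HSPA5 (215), whose order is not resolved between PDIA4 and HSP90B1 since their libraries overlap. XBP1 (69.4), HERPUD1 (23.1), DNAJB9 (7.08), EDEM1 (6.19), SEL1L (3.99) and ERN1 (1.14) came after them. In BE(2)-C cells the order was CALR, HSP90B1 (283), HSPA5 (248), PDIA4 (99.4), XBP1 (82.9), HERPUD1 (48.5), DNAJB9 (12.4), SEL1L (9.62), EDEM1 (3.28) and ERN1 (0.376), with overlap between DNAJB9 and SEL1L. The models come from separately normalised tables and differ in medium, so the 2 orders are set side by side without a test.

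In SHEP-21N cells, the mRNA of the transcription factor XBP1 fell and that of the ERAD adaptor SEL1L rose by 24 h after MYCN was shut off. Rescaled XBP1 went from 75.8 ± 13.3 FPKM (SD, n = 2) to 33.0 ± 5.52 (n = 3), and rescaled SEL1L from 4.47 ± 0.797 to 9.14 ± 1.05. HERPUD1, an ER membrane protein of the same degradation machinery, was also called lower on the rescaled scale. With these, 1 of the 10 genes was called higher and 2 lower, where 38.6% of all tested genes were called (6.16% higher and 32.4% lower). Unnormalised levels of 3 genes were called higher (SEL1L, EDEM1 and HSP90B1) and of 5 lower (XBP1, CALR, PDIA4, HSPA5 and HERPUD1), where 65.3% of all genes were called (28.9% higher and 36.4% lower). The shares over all genes rest on single libraries on the rescaled scale: 7.38% were called without library 2 of 0 h (1.48% higher and 5.9% lower) and 50.5% without library 0 of 24 h (4.1% and 46.4%). The members' lower count ran from 1 to 6 with a library left out, with the 6 in the fit where 46.4% of all genes were lower, and HERPUD1 kept its rescaled call in 1 of 5. The unnormalised lower count ran from 3 to 5, where 29.6% to 35.7% of all genes were lower. Fitting the 0 and 24 h libraries alone kept all 8 unnormalised calls and 2 of the 3 rescaled ones, XBP1 and SEL1L (HERPUD1 adjusted p = 0.225). The median tested gene changed by -0.31 (log2) on the rescaled and -0.04 on the unnormalised scale, so a rescaled fall is read beside it. That rescaled median was -0.17 without library 2 of 24 h and -0.44 without library 0 of 24 h. The members' median was -0.42 on the rescaled scale. With each library centred on its median gene, 3 were called higher and 4 lower, all but PDIA4 of those called unnormalised, where 61.8% of all genes were called (29.6% higher and 32.2% lower).

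**Figure D1:**
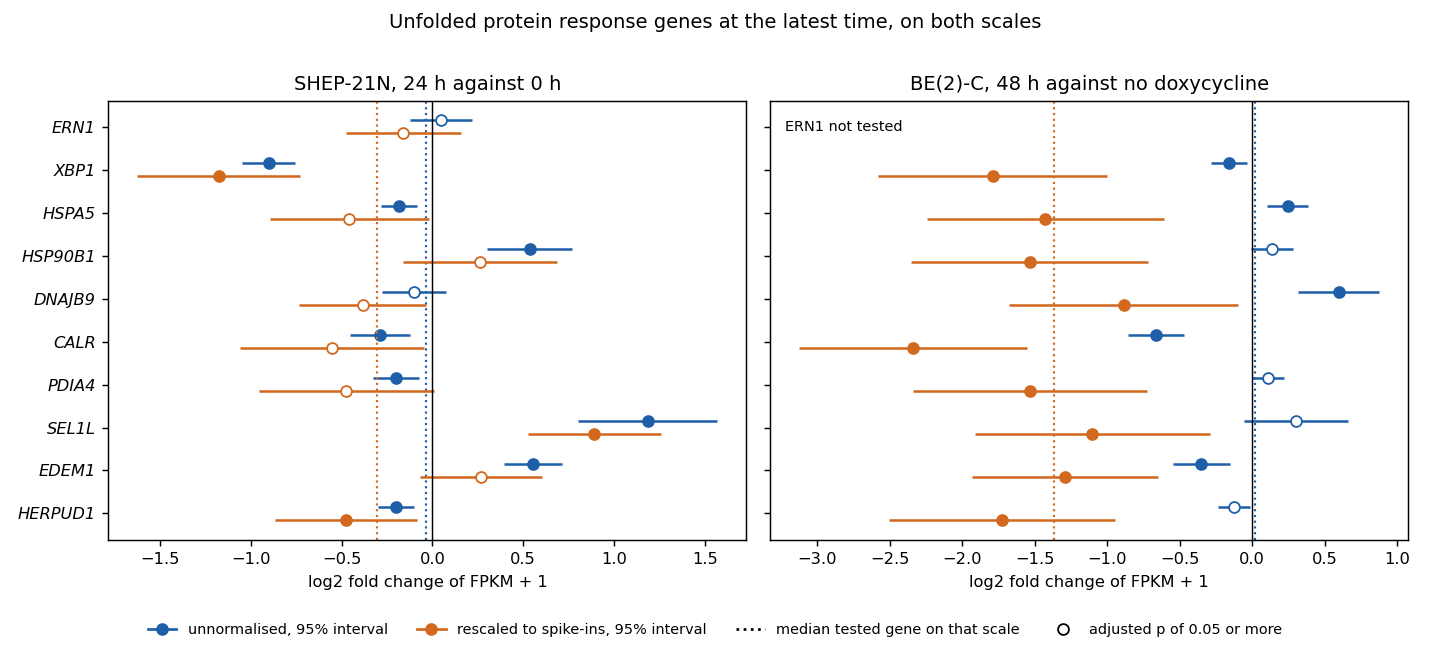
Log2 fold change of FPKM + 1 (x axis) of each of the 10 genes at the latest time against the control, SHEP-21N 24 h against 0 h and BE(2)-C 48 h against no doxycycline, on the rescaled and unnormalised scales, with filled markers for called differences and lines for 95% intervals. In SHEP-21N cells XBP1 lies farthest left and SEL1L farthest right on both scales, and in BE(2)-C cells all 9 tested genes lie left of 0 on the rescaled scale, while 5 of them lie right of 0 on the unnormalised scale.

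XBP1 fell within the earliest hours. Unnormalised XBP1 was 65.2 and 73.6 FPKM at 0 h, 52.3, 52.2 and 51.6 at 2 h, 35.2, 34.9 and 38.7 at 4 h and 34.4, 33.3 and 31.1 at 6 h. It was 35.1, 38.9 and 35.0 at 8 h, returned to 54.8, 54.9 and 50.7 at 16 h, and was 34.6, 37.3 and 38.1 at 24 h. No library after 0 h reached either of the 0 h libraries, and the 16 h libraries lie with those of 2 h. On this scale XBP1 was called lower at every time, by -0.41, -0.92, -1.05, -0.91, -0.37 and -0.90 (log2) at 2, 4, 6, 8, 16 and 24 h. Leaving out library 2 of 0 h ended the 2 h call (-0.32, limma adjusted p = 0.219). Fitting the 2 groups alone ended the calls at 2 h (adjusted p = 0.277) and 4 h (0.0822) and no later call. The rescaled XBP1 levels of 1 group were further apart at several times: 66.4 and 85.2 FPKM at 0 h, 47.8, 70.3 and 55.7 at 16 h, and 38.4, 33.4 and 27.4 at 24 h. There XBP1 was called lower at 6 h (-1.17, adjusted p = 0.00362), 8 h (-0.93, adjusted p = 0.0128) and 24 h (-1.18, SE 0.208, adjusted p = 0.000674). The call at 24 h held with each of the 5 libraries left out (adjusted p from 0.000492 to 0.0306). Leaving out library 2 of 0 h ended those of 6 and 8 h (adjusted p = 0.153 and 0.288), and library 0 of 8 h that of 8 h (adjusted p = 0.0532). Called on this scale were 10.7% of all genes at 6 h (3.17% higher and 7.54% lower) and 7.74% at 8 h (3.92% higher and 3.83% lower), and 1 of the 10 was called higher (SEL1L) and 1 lower (XBP1) at each. XBP1 is a short transcript (1850 bases), and with the length index as a covariate its unnormalised change at 24 h was -0.72 (adjusted p = 1.45e-05). For the rescaled change the same covariate gave -0.51 and no call (adjusted p = 0.323).

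ERN1, which encodes the IRE1 enzyme that splices XBP1, was the least abundant of the 10. Its unnormalised level stayed between 0.951 and 1.53 FPKM over all 20 SHEP-21N libraries, with 1.07 and 1.21 at 0 h and 1.34, 1.21 and 1.09 at 24 h. The 24 h libraries overlap those of 0 h, and the difference at 24 h was not called on either scale (-0.16 rescaled, adjusted p = 0.388, and 0.05 unnormalised, adjusted p = 0.606). In BE(2)-C cells ERN1 lay between 0.140 and 0.762 FPKM, under the mean of 1 FPKM needed for testing.

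**Figure D2:**
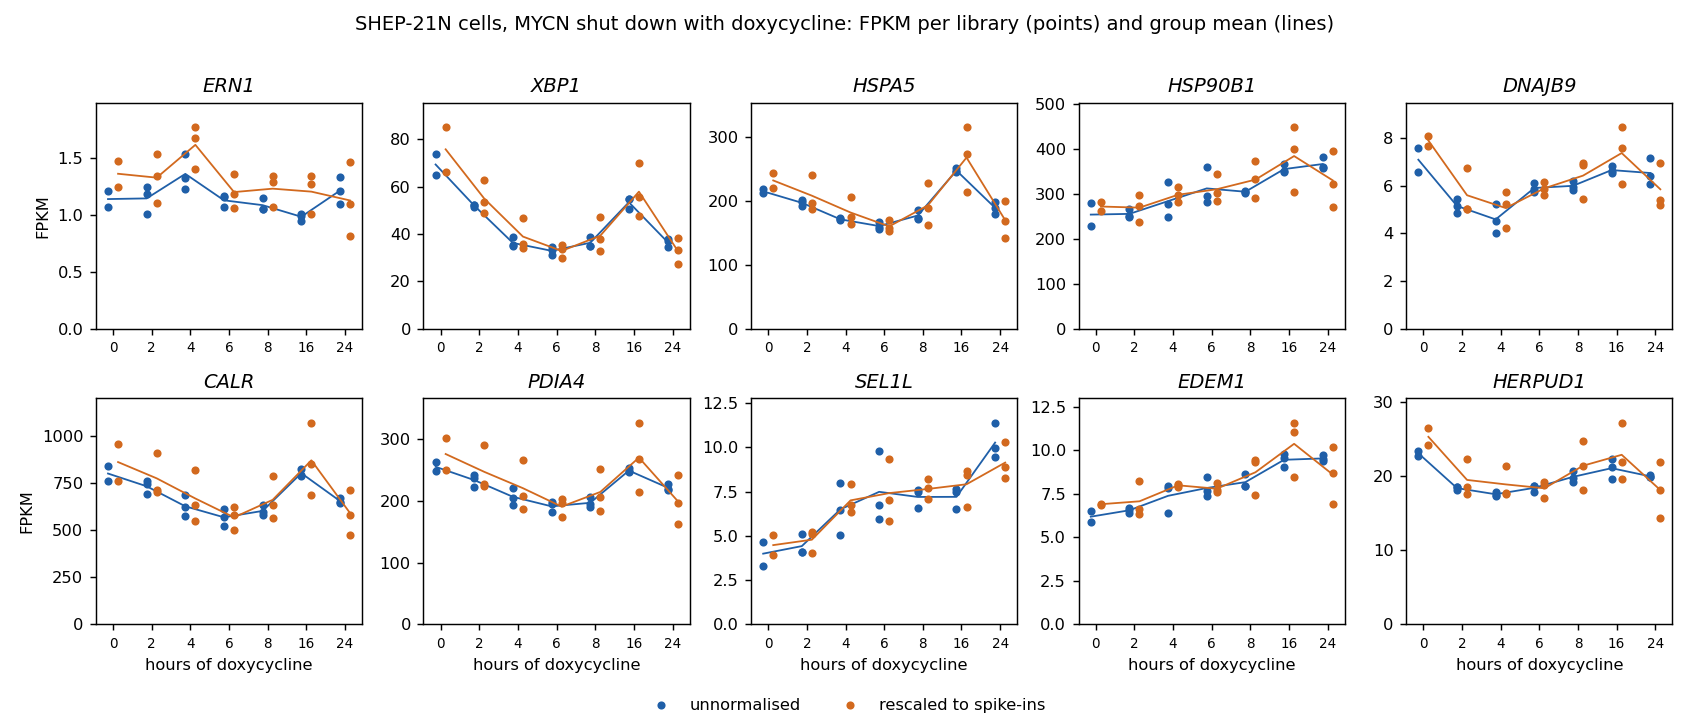
FPKM (y axis, from 0) of each of the 10 genes in the 20 SHEP-21N libraries at 0, 2, 4, 6, 8, 16 and 24 h of doxycycline (x axis, times evenly spaced), with points for libraries and lines for group means on the unnormalised and rescaled scales. XBP1, HSPA5, CALR and PDIA4 are low from 4 to 8 h and higher at 16 h, whereas SEL1L is highest at 24 h and the rescaled SD is larger than the unnormalised SD in 60 of 70 combinations of gene and time.

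The chaperones HSPA5 and CALR and the disulfide isomerase PDIA4 followed a course like that of XBP1 in the unnormalised table, with low levels at 4 to 8 h and a return at 16 h. HSPA5 encodes BiP, the ER member of the heat shock protein 70 family, which binds unfolded chains and the sensors themselves. Its unnormalised level was 218 and 212 FPKM at 0 h, 173, 170 and 171 at 4 h, 167, 156 and 160 at 6 h and 174, 186 and 172 at 8 h. It was 247, 245 and 251 at 16 h and 180, 189 and 199 at 24 h. The 16 h libraries lie above all others and the 24 h libraries below both 0 h libraries. HSPA5 was called lower at 4 h (-0.33), 6 h (-0.42), 8 h (-0.28) and 24 h (-0.19, limma adjusted p = 0.00237) and higher at 16 h (0.20). These calls held with each library of the compared groups left out, and that at 4 h ended when the 2 groups were fitted alone (adjusted p = 0.177). Rescaled HSPA5 was 221 and 244 FPKM at 0 h, 214, 316 and 275 at 16 h and 200, 169 and 142 at 24 h, and the change at 24 h was not called (-0.46, adjusted p = 0.0784). It was called once library 0 of 24 h was left out, as were CALR, PDIA4 and DNAJB9.

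CALR held 763 and 839 unnormalised FPKM at 0 h, 612, 570 and 523 at 6 h, 796, 827 and 787 at 16 h and 643, 651 and 671 at 24 h. PDIA4 held 248 and 262 FPKM at 0 h, 198, 194 and 181 at 6 h, 247, 253 and 246 at 16 h and 217, 219 and 228 at 24 h. For both, the 6 h and 24 h libraries lie below those at 0 h, and the 16 h libraries overlap them. At 24 h CALR was called lower by -0.29 (adjusted p = 0.0035) and PDIA4 by -0.20 (adjusted p = 0.00664). Both calls ended when library 2 of 0 h was left out (-0.22, adjusted p = 0.0663, and -0.16, adjusted p = 0.0819) and with the length index as a covariate (-0.03 and -0.02). Neither was called on the rescaled scale at 24 h (-0.55, adjusted p = 0.0685, and -0.48, adjusted p = 0.096).

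The step from 8 to 16 h does not use the 0 h libraries and was compared after it had been seen. Of the 10 genes 5 were called higher at 16 h than at 8 h in the unnormalised table and none lower, where 28.3% of all genes were called (15% higher and 13.2% lower). HSPA5 rose by 0.48 (limma adjusted p = 5.92e-07), XBP1 by 0.55 (adjusted p = 7.07e-06), CALR by 0.41 (adjusted p = 0.000272) and PDIA4 by 0.34 (adjusted p = 0.000175). These 4 calls held with each of the 6 libraries left out, and that of EDEM1 (0.19) held in 2 of 6 (adjusted p from 0.0437 to 0.133). From 16 to 24 h 4 genes were called lower and 1 higher, where 29.7% were called (11.1% higher and 18.6% lower): HSPA5 changed by -0.39, XBP1 by -0.53, CALR by -0.29 and PDIA4 by -0.17, and SEL1L by 0.46. The first 3 calls held with each of the 6 libraries left out, that of PDIA4 in 2 of 6 (adjusted p from 0.0343 to 0.0859) and that of SEL1L in none (0.0534 to 0.145). None of the 10 was called between 8 and 16 h on the rescaled scale, where 2.46% of all genes were. HSPA5 (-0.65, adjusted p = 0.0378) and XBP1 (-0.79, adjusted p = 0.0175) were called lower at 24 h than at 16 h, where 7.87% were (7.63% lower). Each of these calls held in 2 of 6 with a library left out (adjusted p up to 0.246 for HSPA5 and 0.144 for XBP1, lost when library 1 or 2 of either time was left out). Between 8 and 24 h the unnormalised levels of HSP90B1, SEL1L, PDIA4 and EDEM1 were called higher and none lower, where 32.2% of all genes were called (12.9% higher and 19.2% lower), and none of the 10 was called on the rescaled scale (1.56%). Those 4 calls held in 0, 1, 3 and 2 of 6 with a library left out (adjusted p up to 0.145, 0.136, 0.0871 and 0.0943).

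HSP90B1, the ER member of the heat shock protein 90 family (GRP94), did not take the course of HSPA5. Unnormalised HSP90B1 was 280 and 228 FPKM at 0 h, 296, 281 and 360 at 6 h, 351, 348 and 367 at 16 h and 357, 361 and 382 at 24 h. The 16 and 24 h libraries lie above both at 0 h. The change at 24 h was 0.53 (limma adjusted p = 0.000525) in the unnormalised table and 0.26 with no call (adjusted p = 0.292) on the rescaled scale, where the libraries overlap (282 and 262 at 0 h and 396, 322 and 271 at 24 h). Over the 20 libraries its level correlated with the length index at r = 0.858, and with that index as a covariate the unnormalised change was 0.09 (adjusted p = 0.46). Its transcript has 2858 bases, against 3908 for HSPA5, whose r with the index was -0.176. What the r of HSP90B1 reflects was not tested.

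DNAJB9, an ER co-chaperone (ERdj4) that works with HSPA5, was lowest at 2 and 4 h. Its unnormalised level was 7.59 and 6.58 FPKM at 0 h, 5.42, 4.87 and 5.15 at 2 h, 4.00, 5.21 and 4.53 at 4 h and 6.38, 6.05 and 7.15 at 24 h. The 2 and 4 h libraries lie below both at 0 h, and those at 24 h overlap them. It was called lower at 2 h (-0.39), 4 h (-0.54), 6 h (-0.23) and 8 h (-0.21). The call at 4 h held with each library left out but ended when the 2 groups were fitted alone (adjusted p = 0.198), and that at 2 h was lost with any 1 of the 5 left out (adjusted p from 0.0625 to 0.311). Those at 6 and 8 h ended when library 1 of 0 h was left out (adjusted p = 0.264 and 0.339). The call at 6 h also ended with library 0 or 1 of 6 h left out (0.0544 and 0.0652), and that at 8 h with any library of 8 h left out (0.0528 to 0.102). At 24 h it was not called (-0.10 unnormalised, adjusted p = 0.28, and -0.39 rescaled, adjusted p = 0.0646).

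At 2 h XBP1, DNAJB9 and HERPUD1 were the 3 genes called lower in unnormalised level and none was called higher, where 0.581% of all genes were called (0.236% higher and 0.345% lower). Counts were 2 higher and 6 lower at 4 h, where 33.9% of all genes were called (15.8% higher and 18.1% lower). They were 3 and 6 at 6 h, where 56.7% were called (26.8% and 29.8%), 3 and 6 at 8 h, where 54.2% were called (25% and 29.2%), and 4 and 2 at 16 h, where 51.2% were called (23.8% and 27.5%). None of the 10 was called in rescaled level at 2 h (0.0506% of all genes) or 4 h (0.0843%). These comparisons share the 2 libraries at 0 h. The early calls also rest on the spread of the other times: fitting only the 2 groups kept 0 of the 3 unnormalised calls at 2 h (adjusted p from 0.257 to 0.397) and 0 of 8 at 4 h (0.0822 for XBP1 to 0.285). It kept 5 of 9 at 6 h (HSPA5, XBP1, CALR, PDIA4 and HERPUD1), 7 of 9 at 8 h (not HSP90B1 or DNAJB9) and 5 of 6 at 16 h (not HERPUD1). On the rescaled scale it kept XBP1 at 6 h and both calls at 8 h, ended SEL1L at 6 h (0.0634) and EDEM1 at 16 h (0.243), and kept SEL1L at 16 h. In a test of any difference over time, the unnormalised levels of 9 of the 10 passed, all but ERN1, where 81.9% of all genes passed. In rescaled level XBP1, SEL1L and HSPA5 passed, where 31% did.

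SEL1L, the adaptor that holds the ubiquitin ligase complex of ERAD together, was highest at 24 h. Its unnormalised level was 4.67 and 3.31 FPKM at 0 h, 4.07, 5.08 and 4.11 at 2 h, 6.48, 7.96 and 5.06 at 4 h and 6.72, 5.96 and 9.78 at 6 h. It was 7.45, 6.58 and 7.56 at 8 h, 7.48, 6.50 and 7.62 at 16 h and 9.46, 9.94 and 11.4 at 24 h. From 4 h on every library lies above both at 0 h. The change at 24 h was 1.18 (SE 0.178, limma adjusted p = 3.29e-05) in the unnormalised table and 0.89 (SE 0.169, adjusted p = 0.00108) on the rescaled scale, and both calls held with each library left out (rescaled adjusted p from 0.00243 to 0.0442). Rescaled calls at 6 h (0.61), 8 h (0.67) and 16 h (0.70) each ended when library 2 of 0 h was left out (adjusted p = 0.456, 0.405 and 0.304). They also ended without library 1 of 0 h at 6 and 8 h (0.0593 and 0.0563), without libraries 0 or 2 of 6 h (0.0595 and 0.17), without libraries 0 or 1 of 8 h (0.095 and 0.0587) and without library 2 of 16 h (0.079). In unnormalised level the calls from 4 to 16 h ended without library 2 of 0 h too (adjusted p from 0.0657 at 6 h to 0.299 at 4 h), and that of 4 h without library 0 or 1 of 4 h (0.0539 and 0.104). At 16 h, 8.17% of all genes were called on the rescaled scale (5.13% higher and 3.04% lower), and of the 10 SEL1L and EDEM1 were called higher.

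SEL1L has the longest transcript of the 10 (7925 bases), and its level moved with the length index over the 20 libraries (r = 0.953, a description over libraries that share a time course). With the index as a covariate its unnormalised change at 24 h was 0.41 and still called (adjusted p = 0.0169), and its rescaled change was 0.52 and not called (adjusted p = 0.307). EDEM1, which takes misfolded glycoproteins out of the folding cycle, has a transcript of 6146 bases and an r of 0.839. It was 6.49 and 5.88 unnormalised FPKM at 0 h and 9.37, 9.75 and 9.49 at 24 h, with all 24 h libraries above those at 0 h. Its change was 0.55 (adjusted p = 1.02e-05), or 0.27 (adjusted p = 0.00536) with the index as a covariate. Rescaled EDEM1 was 6.93 and 6.88 FPKM at 0 h and 10.2, 8.72 and 6.89 at 24 h, which overlap, and it was not called (0.27, adjusted p = 0.178). Its rescaled call at 16 h (0.51, adjusted p = 0.0492) ended when either 0 h library (adjusted p = 0.165 and 0.323) or library 1 or 2 of 16 h (0.113 and 0.162) was left out.

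**Figure D3:**
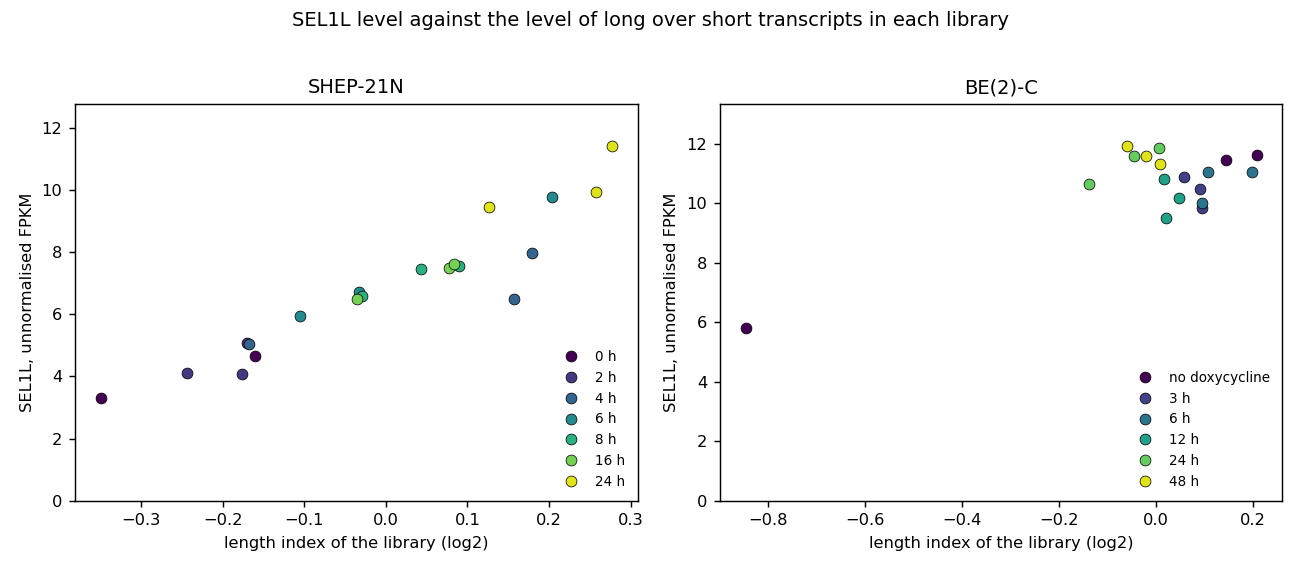
Unnormalised SEL1L FPKM (y axis, from 0) against the length index of each library (x axis, log2, long over short transcripts), for the 20 SHEP-21N and the 18 BE(2)-C libraries, with a colour for each time. SEL1L rises with the index in SHEP-21N cells, where the 24 h libraries lie highest, and in BE(2)-C cells the library with an index of -0.846 has 5.80 FPKM while the others lie between 9.50 and 11.9.

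HERPUD1 was 23.4 and 22.8 unnormalised FPKM at 0 h, 18.5, 18.1 and 18.6 at 2 h, 17.4, 17.9 and 17.4 at 4 h and 19.9, 20.2 and 19.9 at 24 h. Every library after 0 h lies below both at 0 h. It was called lower at each time in the unnormalised table, by -0.31, -0.38, -0.31, -0.20, -0.13 and -0.20, and the call at 24 h (limma adjusted p = 0.00134) held with each library left out. Leaving out library 1 of 0 h ended the call of 2 h (adjusted p = 0.0535), and leaving out either 0 h library (0.143 and 0.0705) or library 2 of 16 h (0.141) ended that of 16 h. Rescaled, the change at 24 h was -0.48 (adjusted p = 0.0442), a call that held in 1 of 5 with a library left out, that without library 0 of 24 h, and was lost in the others (adjusted p from 0.0837 to 0.259).

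At 24 h on the rescaled scale, 32.4% of all SHEP-21N genes were called lower and 6.16% higher, with a median of -0.31. These shares rest on single libraries, as described above, and the median was -0.24 without library 2 of 0 h. Refits with a library left out or with the length index are not given for the pathway genes here and in the next paragraph. Of 13 other pathway genes, those of the PERK branch and stress death output, 9 were called lower and none higher (median -0.75). Among them were ATF3 (6.72 to 2.45 FPKM, -1.19, limma adjusted p = 0.000693), a stress-induced transcription factor, SESN2 (-0.79) and the asparagine synthetase ASNS (-0.78). Unnormalised, 9 of the 13 were also called lower and 2 higher (median -0.47 against -0.04 over all genes). Of all genes, 36.4% were called lower and 28.9% higher on that scale. Of 16 other ER chaperones and co-chaperones, 4 were called lower and none higher on the rescaled scale: SDF2L1 (93.9 to 41.5 FPKM, -1.17, adjusted p = 0.00158), MANF (187 to 98.3 FPKM, -0.94), DNAJB11 (-0.75) and PPIB (-0.60). Of 14 disulfide and redox enzymes 3 were called lower and none higher, led by PRDX4, a peroxiredoxin (338 to 138.5 FPKM, -1.29). The others called lower were TXNDC5 (-0.61) and TMX1 (-0.55).

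The rescaled counts that follow stand beside 32.4% of all genes called lower and 6.16% higher. Of 18 tested ERAD genes beside the 3 members, 5 were called lower and none higher on the rescaled scale. They were AUP1 (-1.27), SYVN1, the ubiquitin ligase that SEL1L anchors (-0.78), the ubiquitin-conjugating enzyme UBE2G2 (-0.80), VIMP (-0.57) and DERL1 (-0.51). Of 12 sensors, proteases and factors of the response, MBTPS2, a protease that cuts ATF6, was called higher (0.42, limma adjusted p = 0.0366). In the same list TRAF2 (-0.82) and NFYC (-0.72) were called lower. Of 42 genes of ER entry and secretory traffic, COPB1 was called higher (0.73) and 12 were called lower, including the signal recognition particle receptor subunit SRPRB (-1.10), SSR4 (-0.79) and SSR3 (-0.71). Of 9 collagen folding genes, the lysyl hydroxylase PLOD2 was called higher (0.69) and PLOD3 (-0.81), FKBP10 (-0.78) and LEPRE1 (-0.56) lower. Unnormalised, where 28.9% of all genes were called higher and 36.4% lower, the higher and lower counts were 6 and 5 of 16 chaperones, 2 and 3 of 14 disulfide enzymes, 5 and 6 of 18 ERAD genes, 5 and 2 of 12 sensors, 12 and 21 of 42 traffic genes and 2 and 4 of 9 collagen folding genes.

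In BE(2)-C cells, the rescaled level of all 9 tested members was lower after 48 h of TWIST1 hairpin induction, as was that of nearly all genes. Of all tested genes 93.4% were called at 48 h (93.3% lower and 0.131% higher) and the median gene changed by -1.36 (log2). The 9 falls therefore stand beside a fall of almost every gene, and their median was -1.53. CALR fell beyond it, from 629 ± 77.1 to 132 ± 60.1 rescaled FPKM (SD, n = 3 each). The 1 added to each FPKM shrinks a fall more at low levels. The fall of the median gene is therefore shrunk more than that of abundant members, and the size of their difference from it is not settled. On the unnormalised scale, where the median gene changed by 0.02, CALR, EDEM1 and XBP1 were called lower, and DNAJB9 and HSPA5 higher. That is 2 higher and 3 lower of 9, where 39.4% of all genes were called (18.1% higher and 21.3% lower). Without control library 1, 4 members were higher and 2 lower, where 56% of all genes were called (27.7% higher and 28.3% lower). Fitting the control and 48 h libraries alone kept the unnormalised calls of CALR (adjusted p = 0.0317) and DNAJB9 (0.0339) and ended those of HSPA5 (0.111), EDEM1 (0.0926) and XBP1 (0.247). It kept 8 of the 9 rescaled calls, all but DNAJB9 (0.0739).

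**Figure D4:**
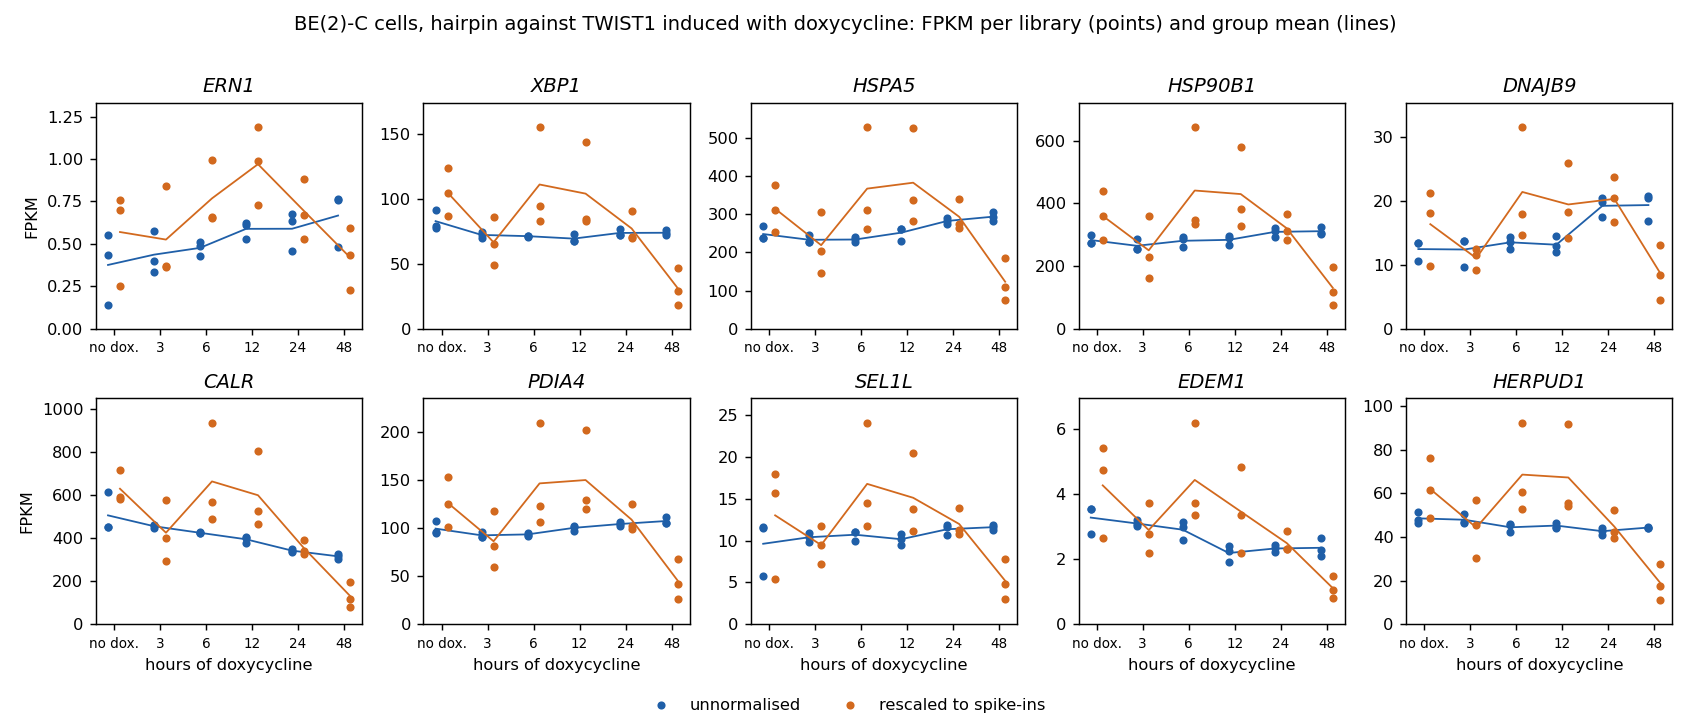
FPKM (y axis, from 0) of each of the 10 genes in the 18 BE(2)-C libraries without doxycycline and at 3, 6, 12, 24 and 48 h (x axis, times evenly spaced), with points for libraries and lines for group means on the unnormalised and rescaled scales. Mean rescaled levels are lower at 48 h than without doxycycline in all 10 genes. In the unnormalised table the mean of CALR is lower at each later time, while DNAJB9 is higher at 24 and 48 h.

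The rescaled calls at 48 h rest on libraries with a wide spread. Rescaled HSPA5 was 377, 254 and 311 FPKM without doxycycline and 110, 185 and 74.2 at 48 h, which do not overlap (-1.43, limma adjusted p = 0.00106). XBP1 was 124, 86.5 and 104 FPKM and then 29.1, 46.7 and 18.5 (-1.79, adjusted p = 0.000129). HERPUD1 was 76.0, 48.5 and 61.3 FPKM and then 17.7, 27.7 and 11.3 (-1.72, adjusted p = 0.000155). HSP90B1 and PDIA4 changed by -1.53 each, EDEM1 by -1.29, SEL1L by -1.10 and DNAJB9 by -0.89. For SEL1L and DNAJB9 the libraries of the 2 groups overlap. Leaving out control library 0 (adjusted p = 0.0611) or library 2 of 48 h (0.0558) ended the call of SEL1L. Leaving out control library 0 (0.113) or 2 (0.0757) or library 2 of 48 h (0.178) ended that of DNAJB9. No member was called at 3, 6, 12 or 24 h on this scale, where 0.035%, 0.035%, 0.0437% and 0.604% of all genes were. In simulated data for 48 h on this scale, 1% of changes of 1 (log2) were recovered. The real 48 h data differ from these, since 93.4% of all genes were called, with SEL1L at -1.10 and DNAJB9 at -0.89 among them. The earlier times were not simulated, so the chance of a call there is not known. An absent call is not read as an absent change.

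CALR changed most within the library. Its unnormalised level was 449, 615 and 451 FPKM without doxycycline, 459, 459 and 447 at 3 h, 427, 425 and 422 at 6 h and 377, 399 and 406 at 12 h. It was 351, 336 and 338 FPKM at 24 h and 305, 326 and 315 at 48 h. From 6 h on every library lies below all 3 controls, and the levels are lower at each later time. CALR was called lower at 12 h (-0.34, limma adjusted p = 0.0443), 24 h (-0.55, adjusted p = 0.000391) and 48 h (-0.66, SE 0.089, adjusted p = 3.21e-05). The calls at 24 and 48 h held with each library left out, though that at 24 h ended when the 2 groups were fitted alone (adjusted p = 0.0977). That at 12 h ended when any library of 12 h was left out (adjusted p from 0.0987 to 0.138). Control library 1 holds the 615 FPKM and the low length index. Without it the change at 48 h was -0.51 (adjusted p = 2.19e-08). With the length index as a covariate it was -0.60 (adjusted p = 7.95e-10). Set against the median gene on the rescaled scale, CALR changed by -0.92. There the added 1 shrinks the fall of the median gene more than that of the more abundant CALR, so the size of this difference is not settled.

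DNAJB9 went the other way within the library. Unnormalised DNAJB9 was 13.4, 10.6 and 13.3 FPKM without doxycycline, 13.7, 9.64 and 13.8 at 3 h, 13.6, 14.4 and 12.5 at 6 h and 14.4, 13 and 12 at 12 h. It was 20.4, 19.8 and 17.4 FPKM at 24 h and 20.7, 20.5 and 16.8 at 48 h. All 6 libraries of 24 and 48 h lie above all 12 others. The change was 0.59 at 24 h (limma adjusted p = 0.00366) and 0.60 at 48 h (SE 0.129, adjusted p = 0.00187), and both calls held with each library left out, though that at 24 h ended when the 2 groups were fitted alone (adjusted p = 0.0552). Without control library 1 it was 0.49 at 48 h (adjusted p = 0.00518). Rescaled DNAJB9 was lower (-0.89), so its direction turns between the scales, and set against the median gene there it was 0.54 higher.

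HSPA5 was 237, 270 and 237 unnormalised FPKM without doxycycline, 283, 290 and 273 at 24 h and 282, 305 and 293 at 48 h. All libraries of 24 and 48 h lie above the 3 controls. It was called higher at 48 h (0.24, limma adjusted p = 0.00733) with each library left out, and at 24 h (0.19, adjusted p = 0.0471), where the call was lost in 5 of 6 (adjusted p from 0.0639 to 0.151). Set against the median gene on the rescaled scale the change at 48 h was 0.00 and not called. The median gene of the 48 h libraries lay at 2.60, 3.15 and 2.09 there (log2 of FPKM + 1). At such levels the added 1 shrinks a fall more than it does for the more abundant HSPA5. This comparison therefore does not settle whether HSPA5 rose against the median gene. HSP90B1 was 275, 300 and 275 FPKM and then 304, 324 and 306 at 48 h, all above the controls, and PDIA4 was 96.1, 107 and 94.8 and then 105, 112 and 105, which overlap. They were not called (0.14, adjusted p = 0.113, and 0.11, adjusted p = 0.0948). Without control library 1 both were called higher (0.18, adjusted p = 0.0265, and 0.17, adjusted p = 0.00148).

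EDEM1 was 3.54, 2.77 and 3.54 unnormalised FPKM without doxycycline, 2.41, 2.27 and 1.90 at 12 h, 2.22, 2.35 and 2.43 at 24 h and 2.29, 2.11 and 2.67 at 48 h. From 12 h on all libraries lie below the 3 controls. It was called lower at 12 h (-0.42, limma adjusted p = 0.0138), 24 h (-0.36, adjusted p = 0.00986) and 48 h (-0.35, adjusted p = 0.0064). Leaving out library 2 of 12 h ended the call of 12 h (adjusted p = 0.0852). Without control library 1 the change at 48 h was -0.44 (adjusted p = 0.000441). Set against the median gene on the rescaled scale EDEM1 was 0.13 higher and not called. Its mean rescaled level was 4.27 FPKM without doxycycline and 1.11 at 48 h. At such low levels the added 1 shrinks a log2 change, so the direction against the median gene is not settled there.

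XBP1 was 77.9, 91.5 and 79.3 unnormalised FPKM without doxycycline, 67.9, 72.7 and 67.7 at 12 h and 73.4, 76.0 and 72.4 at 48 h, with the 12 and 48 h libraries below the controls. The change was -0.25 at 12 h (limma adjusted p = 0.0195) and -0.16 at 48 h (adjusted p = 0.0366). Leaving out control library 1 (-0.09, adjusted p = 0.0758) or library 0 (0.091) or 2 (0.105) of 48 h ended the call of 48 h. Leaving out library 0 (0.0757) or 2 (0.0972) of 12 h ended that of 12 h. HERPUD1 was 47.9, 51.3 and 46.5 FPKM without doxycycline, 42.7, 44.3 and 41.0 at 24 h and 44.2, 44.7 and 44.1 at 48 h. It was called lower at 24 h (-0.18, adjusted p = 0.0179), a call that ended when library 2 of 24 h was left out (0.0789), and was not called at 48 h (-0.13, adjusted p = 0.061).

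SEL1L was 11.5, 5.80 and 11.6 unnormalised FPKM without doxycycline and 11.6, 11.9 and 11.3 at 48 h. The level of 5.80 is that of control library 1, with the length index of -0.846, and the other 17 libraries lay between 9.50 and 11.9. The change at 48 h was 0.30 (limma adjusted p = 0.161), and 0.01 without that library (adjusted p = 0.922). No member was called in unnormalised level at 3 h (0.0175% of all genes called) or 6 h (0.481%). At 12 h 3 were lower, where 4.08% were called (3.33% lower), and at 24 h 2 were higher and 3 lower, where 23.1% were called (9.55% higher and 13.6% lower). Fitting only the 2 groups ended all 3 calls at 12 h (adjusted p from 0.435 to 0.753) and all 5 at 24 h (0.0552 for DNAJB9 to 0.275). In the test of any difference over time 6 of 9 passed (HSPA5, XBP1, CALR, PDIA4, DNAJB9 and EDEM1), where 32.8% of all genes did. In rescaled level 9 of 9 passed it, where 96% did.

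At 48 h in the unnormalised table of BE(2)-C cells, 18.1% of all genes were called higher and 21.3% lower. Refits without control library 1, or with only the 2 groups, are not given for the pathway genes here and in the next paragraph. How far their calls rest on that library is therefore not shown. Of the 16 other chaperones and co-chaperones, 6 were called higher and none lower there (median 0.16 against 0.02 over all genes). They included the lectin chaperone CANX, the membrane-bound relative of CALR (168 to 249 FPKM, 0.58, limma adjusted p = 0.000315), HYOU1 (0.38) and DNAJC10 (0.40). Set against the median gene on the rescaled scale, 3 of the 16 were called higher and 3 lower, where 52.4% of all genes were called (30.6% higher and 21.9% lower). Of 13 disulfide and redox enzymes, 5 were called higher and 2 lower in the unnormalised table. Those higher were PDIA3 (0.31), whose near-identical copy PDIA3P makes its level uncertain, ERP29 (0.37), ERP44 (0.21), TMX1 (0.43) and ERO1L (0.50), and those lower were QSOX1 (-0.36) and TXNDC5 (-0.12). Of 19 ERAD genes 5 were higher, among them FAF2 (0.31), ERLEC1 (0.23) and UBXN4 (0.38), and NPLOC4 (-0.14), UFD1L (-0.29) and DERL2 (-0.26) were lower.

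The unnormalised counts that follow stand beside 18.1% of all genes called higher and 21.3% lower at 48 h. Among 11 sensors and factors, ATF6 itself was called higher in the unnormalised table (13.6 to 18.7 FPKM, 0.44, limma adjusted p = 0.00034), as were ATF6B (0.37), MBTPS2 (0.45) and NFYC (0.19), with TRAF2 (-0.29) and CREB3L2 (-0.40) lower. The SD of the control libraries was larger than that at 48 h for ATF6 (2.13 and 0.466 FPKM) and MBTPS2 (4.26 and 1.35). For ATF6B it was not (0.689 and 0.788). Of 12 PERK branch genes, DDIT3, the stress factor CHOP (7.39 to 11.2 FPKM, 0.56), ATF3 (0.41) and SESN2 (0.40) were called higher. In the same list PPP1R15A, the phosphatase subunit GADD34 (5.94 to 2.94 FPKM, -0.81), and BBC3 (-0.44) were called lower. Of 42 traffic genes 13 were called higher, including KDELR3 (0.61), SEC23B (0.35) and RPN2 (0.25), and 4 lower, among them SEC61A1 (-0.22), SRPR (-0.19) and SPCS2 (-0.29). The fourth, the coat subunit SEC13, fell from 76.1 to 16.3 FPKM (-2.15, adjusted p = 6.15e-11). Of 8 collagen folding genes P4HA1 (0.30) and FKBP10 (0.28) were higher and PLOD3 (-0.81) and LEPRE1 (-0.18) lower. Rescaled, where 93.3% of all genes were called lower, 16 of 16 chaperones, 13 of 13 disulfide enzymes, 19 of 19 ERAD genes, 11 of 11 sensors, 11 of 12 PERK branch genes, 40 of 42 traffic genes and 8 of 8 collagen folding genes were called lower at 48 h.

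Ratios of 2 genes within a library need no scaling between libraries, and were taken from the unnormalised table. They do not remove the shift between long and short transcripts, and the 2 genes can differ in length (XBP1 1850 and HSPA5 3908 bases). XBP1 over HSPA5 fell in both models. In SHEP-21N cells it was 0.298 and 0.347 at 0 h and its mean was 0.264 at 2 h, 0.211 at 4 h, 0.205 at 6 h, 0.205 at 8 h, 0.216 at 16 h and 0.193 at 24 h (0.191 to 0.197). The ratio stayed low at 16 h, when both genes were higher than at 8 h. In BE(2)-C cells it went from 0.334 (0.329 to 0.339) to 0.252 (0.247 to 0.261) at 48 h. CALR over HSPA5 in BE(2)-C cells went from a mean of 2.03 (1.90 to 2.28) without doxycycline through 1.96, 1.82, 1.57 and 1.21 to 1.07 (1.07 to 1.08) at 48 h. In SHEP-21N cells it stayed between means of 3.24 at 16 h and 3.72 at 0 h. HSP90B1 over HSPA5 had a mean of 1.18 at 0 h, 1.94 at 6 h, 1.72 at 8 h, 1.43 at 16 h and 1.93 at 24 h in SHEP-21N cells and was 1.14 and 1.06 at the ends of the BE(2)-C course. In SHEP-21N cells at 4 h it was 1.60, 1.92 and 1.45 in libraries with length indices of 0.157, 0.180 and -0.168. At 24 h it was 1.98, 1.91 and 1.91 at indices of 0.127, 0.258 and 0.277. The part of the length shift in these ratios was not tested. PDIA4 over HSPA5 was 1.18 at 0 h, 1.11 at 8 h, lowest at 16 h with 1.00 (0.978 to 1.03), and 1.17 at 24 h in SHEP-21N cells. These ratios are described without a test.

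**Figure D5:**
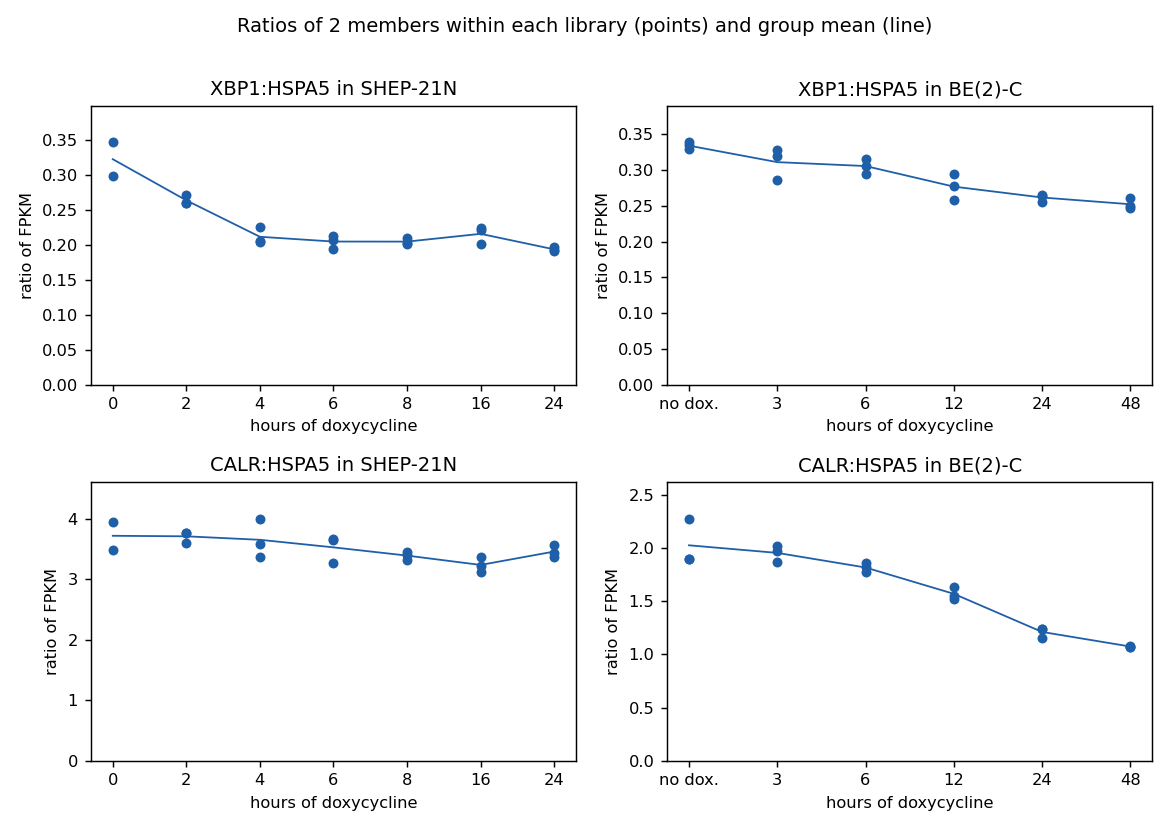
Ratios of unnormalised FPKM of 2 genes within each library (y axis, from 0) over hours of doxycycline (x axis, times evenly spaced) in SHEP-21N and BE(2)-C cells, with points for libraries and a line for the group mean. XBP1 over HSPA5 falls in both models, and CALR over HSPA5 falls from a mean of 2.03 to 1.07 in BE(2)-C cells while it stays above 3 in SHEP-21N cells.

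Levels of the 10 genes moved together in different groupings in the 2 models. Over the 20 SHEP-21N libraries, log2 unnormalised FPKM + 1 of CALR correlated with PDIA4 at r = 0.986, with XBP1 at 0.914 and with HSPA5 at 0.891. HSP90B1 correlated with EDEM1 at 0.939 and with SEL1L at 0.918, and DNAJB9 with HERPUD1 at 0.812. Over the 18 BE(2)-C libraries HSPA5 correlated with PDIA4 at 0.950 and with HSP90B1 at 0.888, while CALR and DNAJB9 ran opposite to each other (r = -0.843). The points of each course share its time points and libraries, and the coefficients are a description.

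The genes most like each member were found the same way among all tested genes. In SHEP-21N cells they were PDIA4, MFGE8 and GPAA1 for CALR (r = 0.986 for PDIA4), TGM2, MMP3 and LEPREL1 for HSPA5 (0.967 for TGM2) and SERPINF1, HSPB8 and OLFM2 for XBP1 (0.948 for SERPINF1). DNAJB9 and HERPUD1 were near each other, with TMBIM4 the nearest to DNAJB9 (0.836). In BE(2)-C cells HSPA5 was most like RMND1 (0.971), PDIA3P (0.969) and PDIA3 (0.968), and PDIA4 most like CCT8 (0.972), ESD and PDIA3. CALR was most like CDC34 (0.988), ELOF1 and MAD2L2, and DNAJB9 most like ANKRD46 (0.983), RFK and MTHFD2.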

How the data were processed

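The authors deposited FPKM tables of the 2 models, unnormalised and rescaled to ERCC spike-ins. The sources used here do not state the rescaling method. The submitters' processing notes name HISAT, Cufflinks 2.0.0 and build hg19. Per the labels' protocols, libraries were stranded and polyA-selected. Read depth is unknown, so no counting interval is given. Of 49 samples, 38 have columns in the tables, 20 of SHEP-21N and 18 of BE(2)-C cells; the 11 others were not analysed here.

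Log2(FPKM + 1) of entries with a mean of at least 1 unnormalised FPKM, spike-ins left out, was fitted with limma 3.58.1 in R 4.3.3, with 1 mean per time, all times of a model together, moderated variances with an intensity trend, and Benjamini-Hochberg adjustment over all tested genes at 0.05. The script was tested on simulated data: of changes of 1 (log2), 71% were recovered at SHEP-21N 24 h on the rescaled scale and 93% unnormalised, and at BE(2)-C 48 h 1% and 95%. Promoters and figures were handled in Python 3.11.15. Transcript lengths came from GENCODE 29, matched by symbol for 10403 of 11867 and 10166 of 11433 tested genes.

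The 10 genes and the 7 pathway lists were chosen with earlier results of these data known. The text names all 10, up to 3 rises and 3 falls per list with the smallest adjusted p, MYCN and TWIST1, and the 3 genes most like the members it dwells on; the rest of a count of 5 or fewer (such as PPIB or ERO1L) was named after its values were seen. Some genes of the lists are not reported here. Alternatives were the other table, centring on the median gene, another pseudocount, other filters, fits of 2 groups, a replicate block, no intensity trend and each library left out; the length index and the steps to and from 16 h were added after the data had been seen.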

Additional observations from a re-analysis of the deposited data

How the results depend on the processing

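Over the members' changes at the latest times, 437 of 508 alternative values kept direction and call, 31 lost the call, 23 gained it and 17 turned direction; at earlier times 475 of 606 kept both and 131 lost the call. At SHEP-21N 24 h, members called lower numbered 2 on the rescaled scale, 5 unnormalised, 4 centred on the median gene, 1 without a filter, 1 with only the 2 groups and 0 with the length index as a covariate; leaving out a library gave 1 to 6. Members called higher numbered 1, then 3 unnormalised, 3 centred and 0 with the length index, and 1 to 1 with a library left out. Members passing the test of any difference over time, a different test from the calls at single times, numbered 3, then 9 unnormalised and 9 centred, and 2 to 5 with a library left out. In the unnormalised table itself 5 were lower (2 with the length index, 3 to 5 with a library left out), 3 higher (3 to 3) and 9 passed the test over time (9 to 9). At BE(2)-C 48 h, 9 were lower (3 unnormalised, 3 centred, 7 to 9 with a library left out), 0 higher (2 unnormalised, 1 centred, 0 to 0) and 9 passed the test over time (5 centred, 7 to 9). In the unnormalised table there, 3 were lower (1 with only the 2 groups, 2 to 4 with a library left out), 2 higher (5 with the length index, 1 with only the 2 groups, 2 to 4, with 4 without control library 1) and 6 passed the test over time (5 to 9). The cause of these shifts was not tested, other than that centring removes the median change by construction.

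Directions turned for these log2 changes. At SHEP-21N 24 h the length index gave HSPA5 0.0127, CALR 0.21, PDIA4 0.21, HERPUD1 0.0099 and ERN1 0.0167, and ERN1 was 0.0487 unnormalised and 0.14 centred. Unnormalised ERN1 was -0.0019 with the length index and ran from -4e-04 to 0.0977 with a library left out (lowest without library 1 of 0 h). At BE(2)-C 48 h the unnormalised table gave HSPA5 0.24, HSP90B1 0.14, SEL1L 0.30, PDIA4 0.11 and DNAJB9 0.60, and centring gave SEL1L 0.32, DNAJB9 0.54 and EDEM1 0.13.

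Library numbers were tested as a replicate block, although deviations of same-numbered control and latest libraries correlated at 0.0157 and -0.0083 in SHEP-21N and -0.0141, 0.03 and 0.0493 in BE(2)-C cells, so the numbers do not pair the libraries. With the replicate block 1 member was called lower at SHEP-21N 24 h in place of 2. Read depth is unknown, and levels near 1 FPKM, such as those of ERN1, are least precise.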
